A study of Rattus norvegicus with 24 samples.

Results

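The comparison described here sets the hypothalamus of late juvenile rats, killed at 29 days of age, against that of early juvenile rats, killed at 21 days. It uses 10 of the 24 bead arrays of a study of the hypothalamus on the way to puberty, 5 late juvenile and 5 early juvenile, chosen by the stage that the labels give. The late juvenile animals are numbered 28, 29, 35, 36 and 37 and the early juvenile animals 164, 165, 166, 167 and 168, so each array was taken as 1 rat. All were Sprague Dawley rats, an outbred laboratory strain, with no treatment named in the labels. The other stages were juvenile (26 days), early proestrus (before ovulation, with 1 rat each of 29, 30, 31 and 32 days by the labels) and late proestrus (the day of first ovulation, 31 days). They are used below to show where their levels lie and, where stated, in alternative fits of the comparison. Animals of the 2 stages come from separate number ranges, so stage cannot be told apart from any handling, shipment or array run that was peculiar to either set of animals.

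The hypothalamus controls reproduction through neurons that release gonadotropin-releasing hormone (GnRH) in pulses to the pituitary. In juvenile rats these neurons are already present but are held at low activity. Their release rises towards the first proestrus, as stimulatory inputs such as kisspeptin and glutamate strengthen and inhibitory tone declines, with glia taking part. Over the same weeks the rat hypothalamus also completes much of its myelination and synaptic growth. A dissected hypothalamus mixes neurons of many kinds with glia, vessels and ependyma. In such bulk tissue fewer cells of a type and less RNA per cell cannot be told apart.

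The arrays carried 22523 probes, and the files give each one by its probe and target identifiers with no gene name. None of these identifiers was found in the RefSeq gene table of the rat (assembly GRCr8, 0 matches for probes and 0 for targets). Transcripts are therefore counted as groups, and 4 are given by identifier. The lists of neuropeptide, receptor, glial, pituitary and other marker genes prepared for this comparison could not be applied, so neither the identity of the tissue nor the purity of the dissection was tested here.

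Late juvenile arrays were dimmer than early juvenile arrays in their bright probes. Mean raw intensity was 583, 747, 728, 755 and 713 on late juvenile replicates 1 to 5, against 869, 1000.2, 837, 837 and 836 on early juvenile replicates 1 to 5. Every late juvenile array lay below every early juvenile array. The means were 705 ± 70 and 876 ± 71 (SD, n = 5 each), a difference of -171 (exact permutation test, two-sided, p = 0.00794, the smallest that 5 arrays against 5 can give). The intensity of the 90th percentile probe averaged 1220 ± 144 in late juvenile and 1605 ± 159 in early juvenile arrays (SD, n = 5 each, p = 0.00794, same exact test), whereas the median probe differed by only -4.58 (p = 0.548, same exact test). The share of probes detected above background (detection p under 0.05) was 47.2% ± 1.3 in late juvenile and 49.4% ± 1.1 in early juvenile arrays (SD, n = 5 each), with ranges of 45.5% to 49.1% and 47.5% to 50.3% that overlapped (exact permutation test, two-sided, p = 0.0159).

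**Figure D1:**
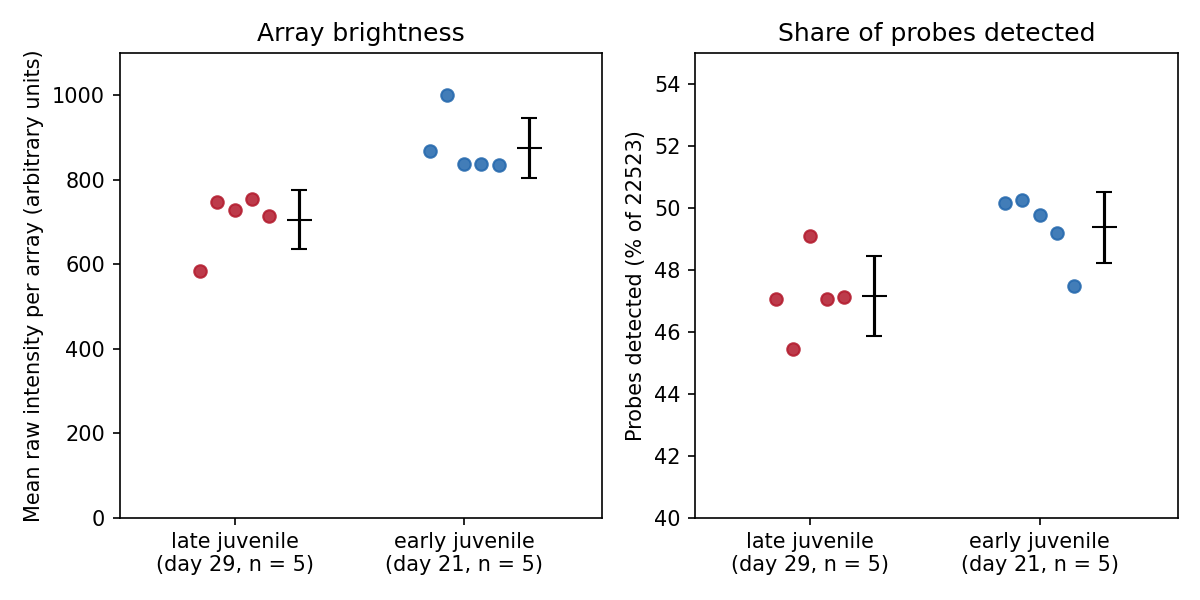
Mean raw intensity (left, arbitrary units, axis from 0) and the percentage of 22523 probes detected (right, axis from 40%) for the 5 late juvenile and 5 early juvenile arrays. Points are arrays, and the bar beside them is the mean with its SD. Mean raw intensity does not overlap between the stages, while the detected shares do.

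Of the 22523 probes, 11288 (50.1%) were detected on at least 4 of the 10 arrays. The 458 probes detected on exactly 3 arrays, just outside this limit, had a median intensity of 215, and the 412 detected on exactly 4, just inside it, one of 219. Probes detected on no array had a median of 184, and the 8883 detected on all 10 one of 593. After background correction and quantile normalization, 1 probe was kept for each target, which left 11081 transcripts. Quantile normalization gives each array the same distribution of values, so every rise or fall below is relative to the rest of the same array.

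Between day 21 and day 29 the levels of many transcripts differed, mostly by small amounts. In the limma fit of the 10 arrays 2662 of 11081 transcripts passed an adjusted p of 0.05, which is 24% of those tested. Of these, 1369 (12.4%) were higher and 1293 (11.7%) lower in late juvenile rats. The median log2 difference was 0.43 among the transcripts called higher, a fold of 1.34, and -0.46 among those called lower, a fold of 1.38. Over all transcripts the median was 0.00, with quartiles of -0.19 and 0.19, and the median standard error was 0.11. Differences under 1.5-fold made up 1946 of the calls (73.1%). At least 2-fold were 50 rises and 92 falls, 1.28% of the transcripts tested, and at least 4-fold were 5 rises and 10 falls. A further 12 transcripts differed by at least 2-fold and did not pass the threshold.

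The balance of rises and falls depends on how the arrays are brought to a common scale. Background-corrected arrays were also scaled to the same median over all 22523 probes, instead of the same distribution. Since 50.1% of the probes passed the filter, that median lies near the detection limit. The median difference of all transcripts tested was then -0.25, and 384 transcripts were called higher and 4472 lower. All 1293 transcripts called lower under quantile normalization were also called lower then, but only 362 of the 1369 called higher were called higher. The dimmer bright probes of the late juvenile arrays move with this shift. Whether they come from the tissue or from labelling and hybridisation was not tested.

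**Figure D2:**
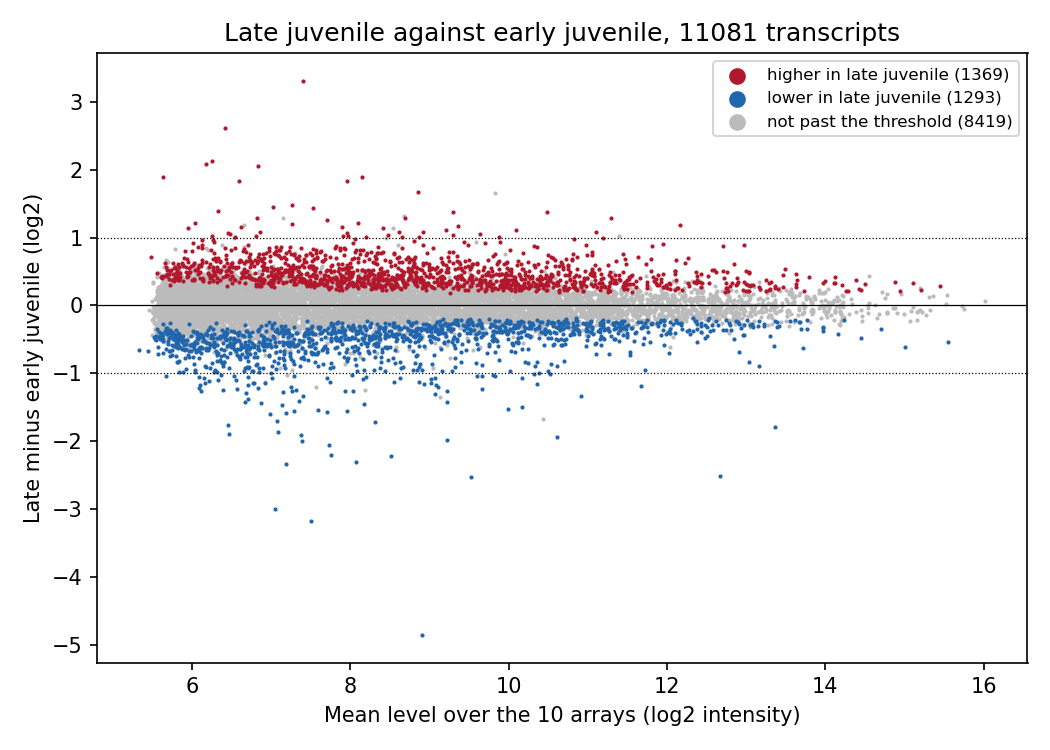
Difference between late and early juvenile rats (late minus early, log2) against the mean level over the 10 arrays (log2 intensity) for 11081 transcripts. Red points (1369) were higher and blue points (1293) lower in late juvenile rats at a limma adjusted p under 0.05, and grey points did not pass. Dotted lines mark 2-fold differences, which few points exceed, with more of them below than above.

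The calls were spread over the range of brightness. When the transcripts were divided by mean level into 4 classes of equal size, 145 of the dimmest class were higher and 222 lower in late juvenile rats, 13.2% of that class. In the second class 361 were higher and 342 lower (25.4%), in the third 441 and 365 (29.1%), and in the brightest 422 and 364 (28.4%). The median standard error of the log2 difference was 0.16 in the dimmest class and 0.08 in the brightest. In each class the median difference of all its transcripts lay between -0.01 and 0.02. Of the transcripts called, 2311 (86.8%) were detected on all 10 arrays, against 78.8% of those tested.

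For 2047 transcripts (18.5%) the late and early juvenile arrays did not overlap, 1072 higher and 975 lower in late juvenile rats. Among the transcripts called, 977 of the 1369 higher and 868 of the 1293 lower had no overlap. The remaining 817 passed the test although at least 1 array crossed into the range of the other stage.

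The largest rise was that of probe ILMN_1358715. Its log2 level was 8.34, 8.32, 9.64, 9.52 and 9.48 on late juvenile replicates 1 to 5, against 5.99, 5.85, 5.96, 5.15 and 5.78 on early juvenile replicates 1 to 5. It was detected on all 5 late juvenile arrays, where replicates 1 and 2 lay below the other 3, and on 4 early juvenile arrays close to background. The means were 9.06 ± 0.67 and 5.75 ± 0.34 (SD, n = 5 each), a log2 difference of 3.31 (SE 0.29, limma adjusted p = 5.28e-05). On the scale shared by the arrays of all stages it stayed between 5.01 and 6.22 on the 12 arrays of the other 3 stages, so the high level was seen in late juvenile rats alone among these arrays.

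The next largest rise was that of ILMN_1349776, which was detected on none of the 5 early juvenile arrays. Its log2 level was 8.13, 7.84, 7.49, 7.07 and 8.07 on late juvenile replicates 1 to 5, against 4.89, 5.23, 5.00, 5.05 and 5.38 on early juvenile replicates 1 to 5. The late juvenile mean of 7.72 ± 0.44 (SD, n = 5) was at least 4.10-fold higher than the early juvenile arrays allow, whose measured mean was 5.11 ± 0.19 (SD, n = 5, limma adjusted p = 1.97e-05). This bound sets each early juvenile array at its lowest detected signal or, if higher, at the probe's own value. In the other stages the probe was split between animals. It stood at 7.32 on juvenile replicate 1 and between 4.97 and 5.27 on the other 3 juvenile arrays, between 4.91 and 5.32 on the 3 early proestrus arrays, and at 7.75, 7.47, 5.24, 7.69 and 5.74 on late proestrus replicates 1 to 5.

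The largest fall was that of ILMN_1650254. Its log2 level was 6.02, 5.81, 5.43, 5.03 and 10.13 on late juvenile replicates 1 to 5, against 11.24, 11.31, 11.27, 11.39 and 11.48 on early juvenile replicates 1 to 5. Late juvenile replicate 5 lay near the early juvenile arrays and the other 4 near background, with 2 of the 5 late juvenile arrays detecting the probe. The means were 6.48 ± 2.07 and 11.34 ± 0.10 (SD, n = 5 each), a log2 difference of -4.86 (SE 0.78, limma adjusted p = 0.00178), whose size rests partly on values near background. On the 12 arrays of the other 3 stages it lay between 11.24 and 11.53, as in early juvenile rats.

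ILMN_1353130 showed the next largest fall, and here it was the early juvenile animals that differed among themselves. Its log2 level was 5.57, 6.41, 5.67, 6.22 and 5.73 on late juvenile replicates 1 to 5, against 7.46, 10.18, 7.46, 11.05 and 9.34 on early juvenile replicates 1 to 5. Late juvenile arrays were all lower, and 2 of the 5 detected the probe, while all early juvenile arrays did. The means were 5.92 ± 0.37 and 9.10 ± 1.61 (SD, n = 5 each), a log2 difference of -3.18 (SE 0.62, limma adjusted p = 0.00478), which again rests partly on values near background. Animals of the other stages differed as well, over narrower ranges, with 8.02 to 10.27 on the 4 juvenile arrays, 8.08 to 10.32 on the 3 early proestrus arrays and 7.16 to 9.03 on the 5 late proestrus arrays.

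Background correction enlarged these 4 differences. On uncorrected intensities, quantile normalized, the log2 difference was 1.68 for ILMN_1358715, 1.02 for ILMN_1349776, -3.16 for ILMN_1650254 and -1.75 for ILMN_1353130, and each still passed the threshold (limma adjusted p between 1.58e-05 and 0.00795). With the authors' processed values they were 1.69, 1.02, -3.19 and -1.77 in the same order.

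**Figure D3:**
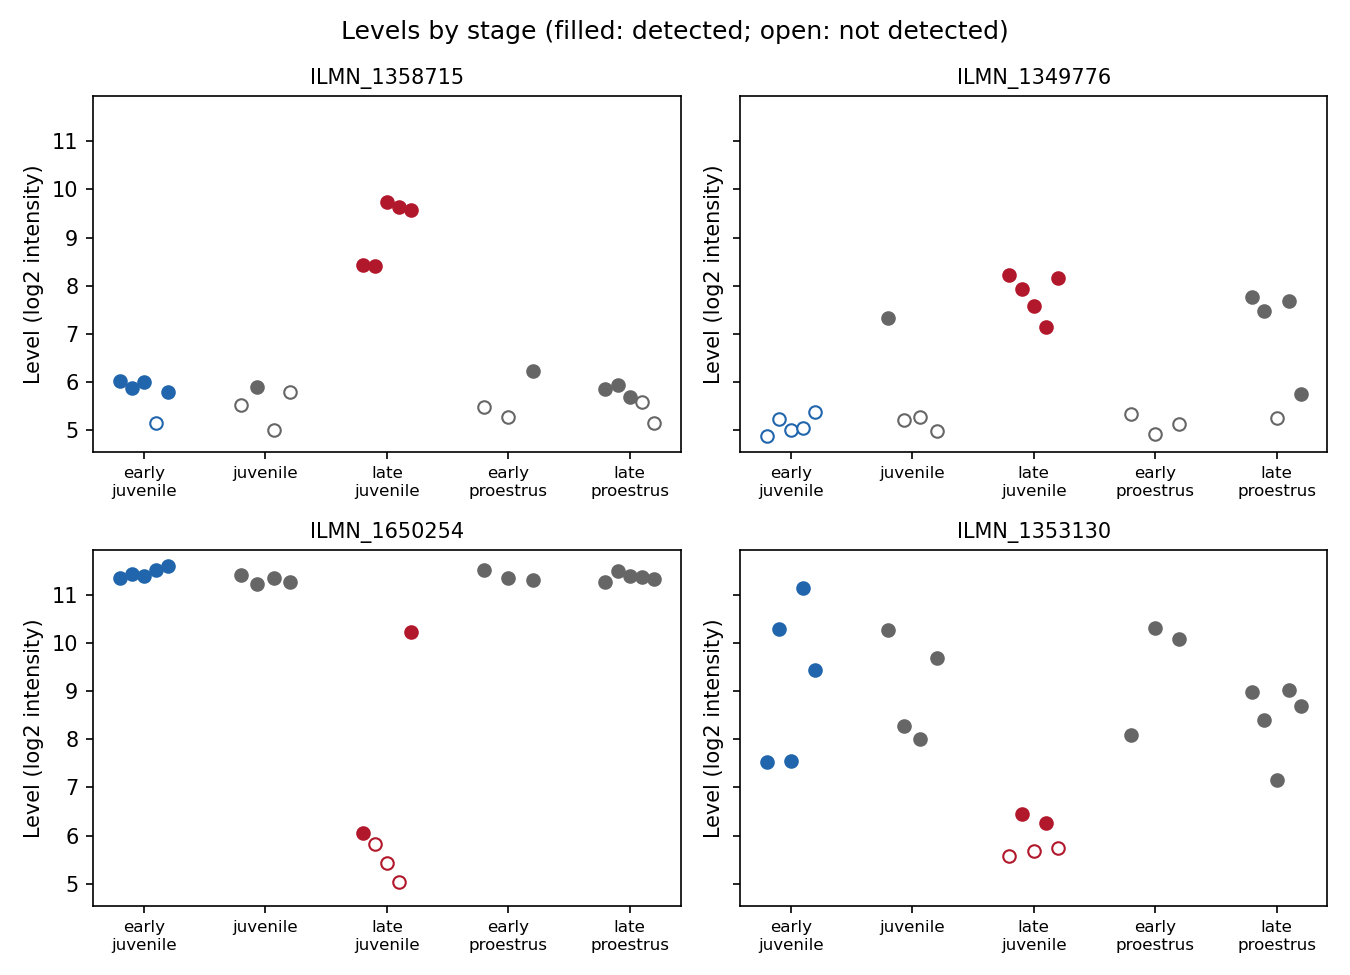
Log2 level of the 4 probes with the largest rises (ILMN_1358715 and ILMN_1349776) and falls (ILMN_1650254 and ILMN_1353130) on 22 arrays of the 5 stages, in order of development. Each point is 1 rat, filled where the probe was detected and open where it was not. ILMN_1358715 is high in late juvenile rats alone, and ILMN_1650254 is low there except in 1 rat.

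Some of the large differences were uneven between animals. A range of at least 2 log2 units within a stage was found for 57 transcripts among the late juvenile and 9 among the early juvenile arrays. Of the 15 transcripts called with at least a 4-fold difference, 7 had such a range in at least 1 of the stages. Of the 142 called with at least a 2-fold difference, 15 had a range of at least 2 log2 units in at least 1 of the stages, and 65 were even in both stages, with a range under 1 log2 unit in each, 35 of them higher and 30 lower in late juvenile rats. The largest difference among these 35 was 1.83 and among these 30 it was 3.00 in size (log2, all limma adjusted p at or below 0.00204).

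Some transcripts crossed the detection limit between the stages. Detected on all 5 late juvenile and no early juvenile array were 6 probes, with a median intensity of 248 in late juvenile and 205 in early juvenile arrays. Detected on no late juvenile and all 5 early juvenile arrays were 31 probes, with medians of 210 and 241. All 6 were called higher and 28 of the 31 lower, as a pattern of detection chosen on these arrays makes likely. In the other stages none of the 6 was detected on every array of a stage. Detected on no array of the stage were 1 of the 6 in juvenile, 3 in early proestrus and 3 in late proestrus rats, and the rest on some arrays. Of the 31, detected again on every array of the stage were 7 in juvenile rats, 10 in early proestrus and 9 in late proestrus, and the number detected on no array of the stage was 6, 3 and 0 in the same order.

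Some targets were measured by a second probe. Exactly 2 tested probes were present for 189 targets, and 83 of these 378 probes (22.0%) were called, near the 24% of all transcripts. At least 1 probe was called for 71 targets and both for 12, so a call on 1 probe usually stood without a call on the other. Where both were called the direction was the same for 11 of 12, and in the 71 pairs as a whole it matched for 44. The cause of the mismatches was not tested. None of the 4 probes given by identifier had a second tested probe.

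The levels of the called transcripts in the other stages were measured on arrays that took no part in the choice, apart from the shared early juvenile arrays that serve as the zero point. Of the 24 arrays, 2 detected less than 0.5 times the median share of probes (juvenile replicate 4 and early proestrus replicate 2) and were left out, so 22 arrays were normalized together. For the 1369 transcripts called higher, the median level was 8.48 at day 21 in early juvenile rats, 8.64 in juvenile, 8.95 in late juvenile, 8.69 in early proestrus and 8.62 in late proestrus rats. For the 1293 called lower it was 8.75, 8.62, 8.18, 8.51 and 8.59 in the same stages. The median of all transcripts tested stayed at 8.06 in each of them, as quantile normalization of the 22 arrays makes likely. In both sets the juvenile, early proestrus and late proestrus medians lay between the late and early juvenile ones, and nearer to the early juvenile one. The late and early juvenile values chose the transcripts, which sets the ends of this range apart. A place between them is therefore likely for arrays outside the choice, and all these medians are a description.

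Fewer transcripts set 1 stage apart from every other array. The late juvenile arrays lay beyond all 17 arrays of the other 4 stages for 142 of the 1369 higher and 152 of the 1293 lower transcripts, against 2.76% of all transcripts tested. The early juvenile arrays lay beyond all 17 arrays of the other stages for 104 and 95 of them, against 1.88% of all tested. Among the calls of at least 2-fold, late juvenile rats stood apart for 19 of 50 rises and 40 of 92 falls, and early juvenile rats for 5 and 15. At 4-fold or more, late juvenile rats stood apart for 1 of 5 rises and 8 of 10 falls, and early juvenile rats for 0 and 1. Since all these sets were called on the late and early juvenile arrays, their shares are expected to exceed those of all transcripts and are given as a description.

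The dimmest juvenile and early proestrus arrays lay nearest to the late juvenile levels within their stages. In late proestrus, replicates 5 and 1, the dimmest there, lay nearest, while the other 3 did not follow the order of brightness. Whether brightness has a part in this was not tested. Over the 1369 transcripts called higher, the median difference from the early juvenile mean was 0.41 to 0.45 on the late juvenile arrays. It was 0.28 on juvenile replicate 5, the dimmest of the 22 arrays with a mean raw intensity of 514, and 0.08 to 0.11 on the other 3 juvenile arrays, whose mean intensities ran from 877 to 1004. In early proestrus it was 0.33 on replicate 1, the dimmest of that stage at 787, and 0.17 and 0.15 on replicates 3 and 4, at 874 and 936. Late proestrus replicate 5, the dimmest there at 695, stood at 0.18, level with replicate 1 at 886 (0.18), and the other 3 lay between 0.06 and 0.10. The transcripts called lower mirrored this, with -0.27 on juvenile replicate 5, -0.34 on early proestrus replicate 1 and -0.19 on late proestrus replicate 5. For them late proestrus replicate 1 stood at -0.16 and the other 3 late proestrus arrays between -0.12 and -0.09. Early proestrus replicate 1 was also the only rat of that stage aged 29 days, the age of the late juvenile rats. With log2 mean raw intensity as a covariate in the fit of 22 arrays, a choice made after seeing the data, 1996 transcripts were called for late against early juvenile, compared with 2736 without it (22.5% of 12186 tested). Of the 2662 called on the 10 arrays, 1634 were among the 1996 (of the same 12186 tested), all with the same direction. Every late juvenile array was dimmer than every early juvenile array, so the covariate overlaps with stage. The lower count therefore cannot show how far brightness enters the difference.

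**Figure D4:**
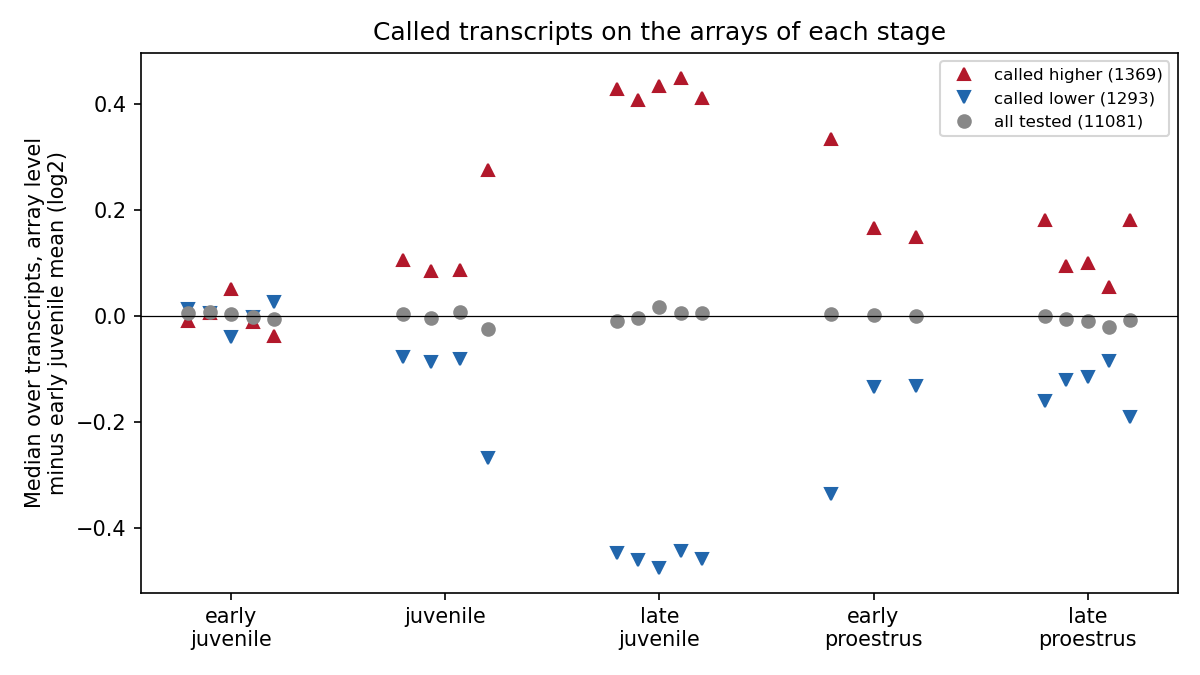
For each of 22 arrays, the median over transcripts of the level minus the early juvenile mean (log2), for transcripts called higher (red), called lower (blue) and all tested (grey), by stage in order of development. Late juvenile arrays lie at 0.41 to 0.45 and -0.44 to -0.48, and the array nearest to them is early proestrus replicate 1, at 0.33 and -0.34.

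Among the 10 arrays, 1 late juvenile rat stood out. The first principal component, with 40.3% of the variance, separated the stages, with scores of 17.5 to 19.9 in late juvenile and -21.5 to -14.9 in early juvenile arrays. The second, with 21.4%, set late juvenile replicate 1 at 35.6, against -15.4 to -1.12 on the other 4 late juvenile and -5.68 to 5.88 on the early juvenile arrays. This array was also the dimmest of the 10. The median SD of a transcript within a stage was 0.20 in late juvenile and 0.14 in early juvenile rats, and 0.15 in late juvenile rats without replicate 1. Leaving this array out gave 3403 calls, 1718 higher and 1685 lower in late juvenile rats, of which 2506 were among the 2662. Leaving out any other single array gave between 1886 (without early juvenile replicate 1) and 2453 calls.

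**Figure D5:**
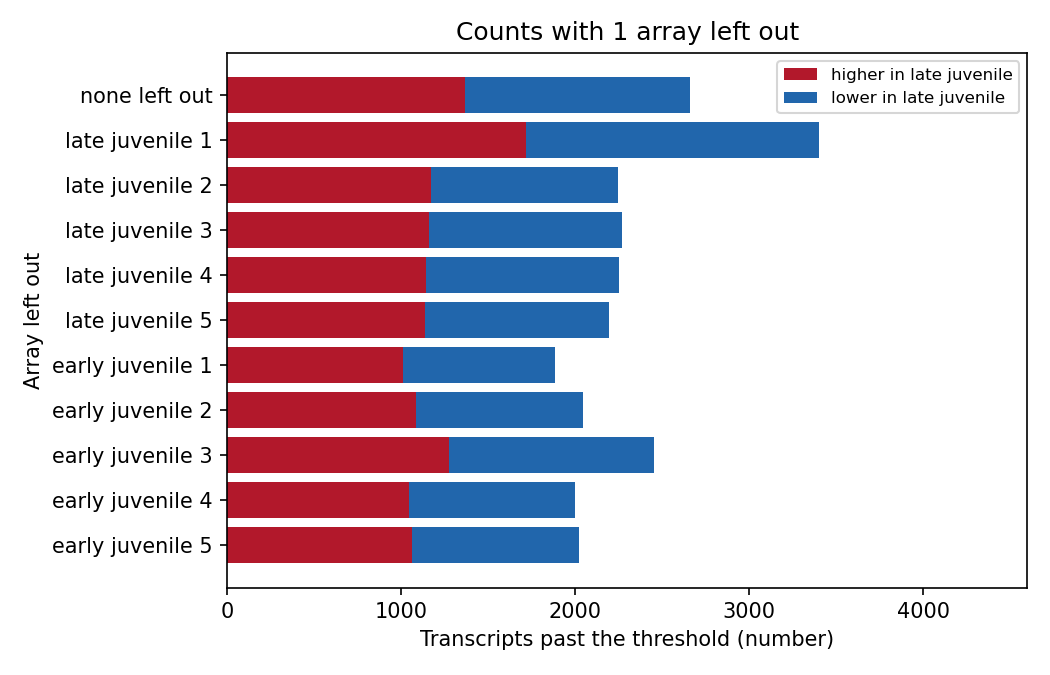
Number of transcripts past a limma adjusted p of 0.05, split into higher (red) and lower (blue) in late juvenile rats, with all 10 arrays and with each array left out in turn. The count rises to 3403 without late juvenile replicate 1 and lies between 1886 and 2453 without any other array.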

How the data were processed

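Per the labels, hypothalamic RNA was column-purified and amplified into biotin-labelled cRNA for Illumina arrays. The deposited intensity of each probe is not normalized, per the file headers, and is accompanied by a deposited detection p-value that moves in steps of 1 in 825. A second deposited table holds the authors' processed intensity, which ranked the probes of each array as the raw values do (Spearman correlation 1). For both tables the software is not given in the sources used here. Neither are slide and scan date, so no batch term could be fitted.

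The 10 arrays were processed on their own with limma 3.58.1 in R 4.3.3, using its neqc function: background estimated through detection p, an offset of 16, then quantile normalization on the log2 scale. Probes with a detection p under 0.05 on at least 4 of 10 arrays were kept, and the brightest probe stood for each target. A mean for each stage was fitted with lmFit and eBayes, and two-sided p-values were adjusted by Benjamini-Hochberg over 11081 transcripts. The fit was tested on simulated data drawn independently for each transcript. These held no differences between whole arrays, such as brightness, so that test does not cover them. The number of arrays, 5 per stage, limits the precision, and p-values judge the difference in stage means against the spread between these animals. Brightness and detected share were compared by exact permutation tests. Replicate numbers follow accession order and pair nothing.

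The members, lists and tests were chosen with earlier results of these data known. Probes given by identifier are the 2 largest rises and 2 largest falls among those past the threshold, without overlap between stages and detected on all arrays of at least 1 stage (1826 transcripts). Levels in other stages come from 22 arrays normalized together. Alternatives covered normalization, background, filters, probes, arrays in the fit, weights and the model of spread.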

Additional observations from a re-analysis of the deposited data

Results flagged for a closer look

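Brightness, detected share and the levels of the 4 probes were examined, stage by stage, for a single array lying far from its neighbours. This was found in 5 of 20 sets of 4 or 5 values. Chance gives about 5% for unrelated values. The sets here share arrays, and the 4 probes were chosen for their large differences, so that rate is no measure of an excess. Late juvenile replicate 1 had a mean raw intensity of 583, while the other 4 arrays of its stage averaged 736 ± 19 (SD). Early juvenile replicate 2 had 1000.2, while the other 4 averaged 845 ± 16 (SD). In late juvenile replicate 5 the level of ILMN_1650254 was 10.13, and the other 4 rats averaged 5.57 ± 0.43 (SD). In early juvenile replicate 4 the level of ILMN_1358715 was 5.15, and the other 4 rats averaged 5.90 ± 0.10 (SD), all of them close to background. In juvenile replicate 1 the level of ILMN_1349776 was 7.32, and the other 3 juvenile rats used averaged 5.15 ± 0.15 (SD).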

How the results depend on the processing

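The count of 2662 transcripts was recomputed under 23 settings and stayed within 1.5 times in 20 of them, with 1886 to 3403 calls when 1 array was left out. The covariate of brightness and the removal of late juvenile replicate 1 together with early juvenile replicate 2 (2954 calls) were chosen after seeing the data. The 3 exceptions were median scaling (4856 calls, 384 higher and 4472 lower), a test against a minimum fold of 1.2 (337 calls, 161 higher and 176 lower, fewer by its construction) and the fit of all 24 arrays (30 calls, 12 higher and 18 lower, all 30 among the 2662 with the same direction, and 568 at an unadjusted p under 0.05). The last holds the 2 arrays of low detection, without which the same fit called 2736. With the median in place of the mean raw intensity, the difference in brightness was -4.58 and no longer passed the exact test. The median probe stood at 217 in late and 222 in early juvenile arrays. This is near the detection limit, since probes detected on exactly 3 and exactly 4 arrays had medians of 215 and 219. The median therefore says little about the bright probes. The difference in mean raw intensity ran from -183 to -140 and that in detected share from -2.71 to -1.80 percentage points without 1 array. The 4 probes kept their direction in 88 recomputed differences, for which they had been chosen on these arrays. Of these differences 1 no longer passed, that of ILMN_1353130 in the fit of 24 arrays (-3.21, limma adjusted p = 0.0511). None of the 4 probes passed the filter of detection p under 0.01 on every array, so they were not tested in that setting. No paired analysis was possible because replicate numbers of the 2 stages only name animals. Gene lists and their alternatives were not run, since the identifiers could not be paired with genes. In the dimmest class 13.2% of transcripts were called, with a median standard error of 0.16 against 0.08 in the brightest. Whether signal over background limits the calls there was not tested.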
